A study of Homo sapiens with 12 samples.

Results

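The aldehyde dehydrogenases are described here in the established human glioblastoma line U-87 MG (U87) in which the genes for the α subunits of the hypoxia-inducible factors were knocked out. The 10 members were listed by symbol for this family (ALDH1A1, ALDH1A2, ALDH1A3, ALDH1B1, ALDH2, ALDH3A1, ALDH3A2, ALDH3B1, ALDH7A1 and ALDH9A1) and were found as 10 rows among 20263 genes. Messenger RNA was sequenced in 4 groups of 3 libraries, all under hypoxia at 1% O2: cells with the empty vector (vector), HIF1α-ko, HIF2α-ko and the dual knockout HIF1α/2α-ko. The series record gives 72 h of hypoxia. No group was kept in normal oxygen, so each difference below is between hypoxic cells with and without a HIF gene. Whether a knockout line was 1 clone or a pool, and whether the 3 libraries of a group came from separate cultures, is not stated in the sources used here. The p-values therefore measure only the spread between these libraries, which may be technical.

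The family was selected on the values of ALDH1A3, whose libraries against vector were known when the list was drawn up, with 1 vector library apart from the others. All comparisons of ALDH1A3 with vector, and those with HIF1α-ko, whose libraries were part of that choice, are therefore given as a description with no test. The other members and the gene lists below were also chosen with earlier results of these data known.

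Aldehyde dehydrogenases oxidize aldehydes to carboxylic acids with NAD or NADP as the electron acceptor. ALDH1A1, ALDH1A2 and ALDH1A3 make retinoic acid from retinaldehyde, the step that commits vitamin A to signalling through nuclear receptors. ALDH2 and ALDH1B1 are mitochondrial enzymes that clear acetaldehyde. ALDH3A1, ALDH3A2 and ALDH3B1 act on fatty and lipid-derived aldehydes, ALDH7A1 works in lysine breakdown, and ALDH9A1 oxidizes aminobutyraldehyde and the aldehyde precursor of carnitine. High aldehyde dehydrogenase activity is widely used to mark stem-like cells in tumors, glioma included. HIF1α and HIF2α, encoded by HIF1A and EPAS1, accumulate in low oxygen and bind DNA at hypoxia response elements, whose core letters are ACGTG or GCGTG.

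These core letters were looked for in the 250 bases before each start site that RefSeq lists (GRCh38.p14), on both strands, in which case they read CACGT or CACGC. Of the 10 members, 8 had an entry, with 11 start sites in all, and 4 of the 11 windows (36.4%), in 4 genes, held a match. Over all 35116 windows of the same length, 43.2% held one of them, as did 49.5% of the 21534 windows whose gene is in the deposited file. The matches of the members whose levels differed between knockout groups are shown with the bases around them, 5′ to 3′ on the strand of the gene and with the motif in capitals. The first and second matches of ALDH1A2 lay 221 and 67 bases before its start (chr15:58065916-58065944 and chr15:58065762-58065790, minus strand), and those of ALDH1A3 lay 197 and 43 bases before its start (chr15:100879622-100879650 and chr15:100879776-100879804, plus strand). The match of ALDH1B1 lay 190 bases before its start (chr9:38392500-38392528, plus strand). ALDH3A2 had one 76 bases before its second start (chr17:19648663-19648691, plus strand) and, 47 bases before it, CACGTG, in which CACGT and ACGTG overlap (chr17:19648692-19648721).
ALDH1A2 first: actgtggaggcgGCGTGggctggtctccg
ALDH1A2 second: cgcctcggccctCACGTccaataagaaga
ALDH1A3 first: gacggtccgcggCACGCgggtggagccgc
ALDH1A3 second: ctcgggcgggagGCGTGgggcgctgcata
ALDH1B1: tagatctgagcaACGTGgacactgggctt
ALDH3A2 first: agggcgggggccGCGTGggcgaggccgtg
ALDH3A2 second: aacagcggctgtCACGTGggccgcccaggc
All these windows except that of ALDH1B1 lie inside an exon of a longer transcript of the same gene in GENCODE 29. The windows of ALDH1A1, ALDH3B1, ALDH7A1 and ALDH9A1 held no match. These are matches of letters, and no binding was measured in these libraries.

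TPM, the deposited unit, is a share of all transcripts in a library, corrected for gene length, so levels of different genes can be set side by side but sequencing depth is unknown. The columns summed to between 999955 and 999982. HIF1A stood at 110 to 151 TPM in vector and 38.6 to 57.3 TPM in HIF1α-ko, and EPAS1 at 286 to 346 TPM in vector and 87.6 to 130 TPM in the groups with HIF2α knocked out, so in these groups the targeted messages were reduced and not absent. In HIF1α/2α-ko, HIF1A was at 67.8 to 89.2 TPM, above every HIF1α-ko library and below vector (-0.71 ± 0.20 on the log2(TPM + 1) scale, adjusted p = 0.0104, limma). It overlapped HIF2α-ko, where HIF1A was not targeted, at 76.1 to 108 TPM (-0.19 ± 0.20, adjusted p = 0.453), so by this message HIF1α/2α-ko could not be told from HIF2α-ko. Of the 7 glial or glioma markers, 4 had a mean of at least 1 TPM in every group, while GFAP, S100B and SOX2 did not. CDKN2A, which U-87 MG is known to lack, was listed at 0 in all 12 libraries, and markers of other cell types summed to 0.462 to 3.08 TPM (5 epithelial genes), 0.165 to 0.855 TPM (5 leukocyte genes), 1.15 to 7.08 TPM (3 endothelial genes) and 1.79 to 4.7 TPM (3 neuron genes). Replicate 1 stood apart in every group: Pearson's r of log2(TPM + 1) across genes with the other libraries of its group was at most 0.985, lowest in vector at 0.968 and 0.966, and r between the others of a group was 0.989 to 0.992. Fewer cells expressing a gene and less RNA per cell cannot be told apart in such bulk libraries.

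Of the 10 members, 8 passed the filter of at least 1 TPM in at least 3 libraries and entered the tests, and ALDH1A1 and ALDH3A1 did not. ALDH3B1 was the most abundant member in every group, with a mean of 156 ± 34.9 TPM (SD, n = 3) in vector. ALDH2 followed in vector at 29.4 ± 2.19 TPM, and its range overlapped that of ALDH1A3, which overlapped that of ALDH9A1. In HIF1α-ko the order was different in 1 place: ALDH1A3, at 86.4 ± 2.12 TPM, stood between ALDH3B1 and ALDH2, and the 3 ranges did not overlap. ALDH3A2, ALDH1B1, ALDH1A2 and ALDH1A1 stayed below 4 TPM in every library of vector and the single knockouts. ALDH1A1, a common marker gene of stem-like cells, was at 0.634 to 1.21 TPM over the 12 libraries, with overlapping groups. ALDH3A1 was listed at 0 in all 9 libraries outside HIF1α/2α-ko and at 0.0886, 0.0425 and 0.0469 TPM in that group.

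ALDH1A3, the retinaldehyde dehydrogenase that is the main source of aldehyde dehydrogenase activity in many tumors, was higher in HIF1α-ko than in HIF2α-ko and HIF1α/2α-ko. The gene lies at chr15:100877714-100916626 (GRCh38, plus strand). Its level was 43.0 TPM in vector replicate 1, 3.71 TPM in replicate 2 and 3.30 TPM in replicate 3. In HIF1α-ko it was 85.5, 88.9 and 85.0 TPM. In HIF2α-ko it was 8.27, 6.77 and 8.67 TPM, and in HIF1α/2α-ko 5.79, 14.3 and 13.5 TPM. The HIF1α-ko libraries were above all others, and vector replicate 1 lay between them and the remaining 8.

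Vector replicate 1 held 12.3 times the mean of the other vector libraries (3.51 TPM), so the vector mean describes none of them. The endothelial markers were also highest in that library within vector, at a sum of 6.64 TPM against 2.15 and 1.6 TPM, and their part in the ALDH1A3 value was not tested. In the knockout groups the endothelial markers summed to 1.41 to 3.69 TPM (HIF1α-ko), 3.72 to 7.08 TPM (HIF2α-ko) and 1.15 to 1.89 TPM (HIF1α/2α-ko). In each of these groups replicate 1 was the highest. The HIF1α-ko mean was 2.01 times vector replicate 1 and 24.7 times the mean of vector replicates 2 and 3. The HIF2α-ko mean (7.90 ± 1.00 TPM, SD, n = 3) and the HIF1α/2α-ko mean (11.2 ± 4.68 TPM) were 0.184 and 0.260 times vector replicate 1, but 2.25 and 3.19 times the mean of the others. Against the mean of all 3 vector libraries these ratios were 0.474 and 0.671. By ratio of mean TPM the direction of ALDH1A3 in HIF2α-ko and HIF1α/2α-ko against vector thus depended on that library. On the log2(TPM + 1) scale the direction depended on it in HIF2α-ko only, where the difference was -0.12 with it and 0.98 without it. The difference in HIF1α/2α-ko was positive both ways, at 0.25 and 1.35. For HIF1α-ko it was 3.18 and 4.28.

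The knockout groups could be compared without the vector libraries. As a description, the difference of HIF1α/2α-ko from HIF1α-ko was -2.93 log2 units, with a ratio of means of 0.129, and its 3 libraries were all lower. HIF1α-ko was above HIF2α-ko by 3.30. HIF1α/2α-ko and HIF2α-ko did not differ in the test (0.37 ± 0.67 (SE), 95% interval -1.09 to 1.83, adjusted p = 0.682, limma), and their libraries overlapped through HIF1α/2α-ko replicate 1. All groups share 1 estimate of the spread in this fit, vector replicate 1 included. Without replicate 1 of every group, a fit added after the data were seen, the difference was 0.78 with an adjusted p of 0.00142.

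ALDH1A2, the retinaldehyde dehydrogenase of the embryo, was also highest in HIF1α-ko, at a far lower level. It was at 1.23, 0.438 and 1.21 TPM in vector and at 2.12, 3.33 and 1.66 TPM in HIF1α-ko. In HIF2α-ko it was at 0.616, 1.53 and 1.09 TPM and in HIF1α/2α-ko at 0.403, 0.457 and 0.694 TPM. All HIF1α-ko libraries were above all others, and the other groups overlapped. It was higher in HIF1α-ko than in vector (log2 difference 0.78 ± 0.24, adjusted p = 0.0295), a call lost without vector replicate 2 (0.121) or HIF1α-ko replicate 2 (0.125). Its level in HIF1α/2α-ko was below that in HIF1α-ko (-1.13 ± 0.24, adjusted p = 0.00406), which held without any 1 library. The difference between HIF1α-ko and HIF2α-ko lay at the threshold (0.69 ± 0.24, adjusted p = 0.0488), and with the replicate number as a block it was 0.0565. Of the summed TPM of the 3 retinaldehyde dehydrogenases, ALDH1A3 made up 95.5% to 97.3% in HIF1α-ko, 94.7% in vector replicate 1 and 61.8% and 76.7% in the other vector libraries.

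The mitochondrial ALDH1B1 had its highest level in HIF1α/2α-ko, above each other group. It was at 2.89, 1.97 and 1.97 TPM in vector, 3.0, 3.66 and 3.14 TPM in HIF1α-ko, and 2.38, 1.86 and 1.93 TPM in HIF2α-ko. In HIF1α/2α-ko it was at 4.38, 10.1 and 9.67 TPM. Every HIF1α/2α-ko library was above every other library, replicate 1 by the least. Against vector the means had a ratio of 3.54 (log2 difference 1.41 ± 0.25, adjusted p = 0.000641), and the differences from HIF1α-ko and HIF2α-ko were 1.02 (adjusted p = 0.00961) and 1.5 (adjusted p = 0.000423). In HIF1α-ko against vector the libraries also did not overlap, but the difference of 0.39 ± 0.25 did not pass the test (adjusted p = 0.258).

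ALDH2, the main mitochondrial acetaldehyde dehydrogenase, passed no test in the fit of all libraries. It was at 30.6, 30.7 and 26.9 TPM in vector, 39.3, 33.2 and 35.7 TPM in HIF1α-ko and 39.1, 29.5 and 33.5 TPM in HIF2α-ko. In HIF1α/2α-ko replicates 1 and 2 were at 33.9 and 33.5 TPM and replicate 3 at 85.0 TPM. That 1 library carried the group mean of 50.8 TPM, and the difference from vector was 0.63 ± 0.28 with it (adjusted p = 0.0842) and 0.19 without it. Leaving out HIF1α/2α-ko replicate 1 or 2 instead gave 0.84 (adjusted p = 0.0323) or 0.85 (adjusted p = 0.04), with replicate 3 still in the group. A protein-coding gene annotated over ALDH2 on the same strand, AC002996.1, was at 0.376 to 0.964 TPM in the 12 libraries, with the highest value in the same library. Its part in the ALDH2 value was not tested.

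ALDH3A2, the fatty aldehyde dehydrogenase, was highest in HIF1α/2α-ko and lowest in HIF2α-ko. It was at 2.21, 2.38 and 3.17 TPM in vector and 3.62, 3.02 and 3.50 TPM in HIF1α-ko. In HIF2α-ko it was at 1.81, 1.64 and 1.87 TPM, all below vector, and in HIF1α/2α-ko at 4.80, 7.69 and 5.35 TPM, all above every other library. HIF1α/2α-ko exceeded vector by 0.94 ± 0.18 (adjusted p = 0.00105), HIF1α-ko by 0.65 (adjusted p = 0.0174) and HIF2α-ko by 1.30 (adjusted p = 0.000111). The fall in HIF2α-ko against vector did not pass (-0.36 ± 0.18, adjusted p = 0.216). The higher level in HIF1α-ko than in HIF2α-ko (0.66, adjusted p = 0.0196) was lost under median ratio scaling (adjusted p = 0.0616).

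ALDH9A1 was higher in HIF1α-ko than in vector and highest in HIF1α/2α-ko. It was at 13.3, 7.51 and 8.05 TPM in vector and 11.2, 9.47 and 8.43 TPM in HIF2α-ko, which overlapped. HIF1α-ko held 16.9, 17.1 and 15.4 TPM and HIF1α/2α-ko 26.0, 24.9 and 25.5 TPM, neither overlapping any other group. The difference from vector was 1.36 ± 0.19 in HIF1α/2α-ko (adjusted p = 0.000123) and 0.76 ± 0.19 in HIF1α-ko (adjusted p = 0.0129), and the latter was lost without vector replicate 2 or 3 (adjusted p up to 0.0583). HIF1α/2α-ko exceeded HIF2α-ko by 1.31 (adjusted p = 0.000158). It exceeded HIF1α-ko by 0.60 (adjusted p = 0.0323), a call lost without any 1 library of those groups, which leaves fewer samples in the comparison. HIF1α-ko exceeded HIF2α-ko by 0.71 (adjusted p = 0.0176), and by 0.48 under median ratio scaling (adjusted p = 0.0986).

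ALDH3B1 and ALDH7A1 passed no test in any comparison in the fit of all libraries. ALDH3B1, the lipid aldehyde dehydrogenase bound to membranes, was at 136, 196 and 136 TPM in vector, and its 95% interval in HIF1α/2α-ko against vector ran from -0.42 to 0.25 log2 units. In the knockout groups it lay between 124 and 173 TPM. ALDH7A1 was at 8.45, 6.11 and 5.14 TPM in vector and between 5.99 and 9.98 TPM in the knockout groups, with an interval of -0.15 to 0.78 for HIF1α/2α-ko against vector. The 2 intervals do not show that the levels were equal.

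In HIF1α-ko against vector 2 of 7 tested members were higher (ALDH1A2 and ALDH9A1) and 0 lower, where 17.3% of the 11731 genes tested were called higher and 8.77% lower. That count was 0 without vector replicate 2 and 1 without vector replicate 3 or HIF1α-ko replicate 2. In these fits 1136, 1069 and 1035 of all genes were called higher, instead of 2031. In HIF2α-ko against vector limma called 0 of 7 in either direction, and 0 had an unadjusted p under 0.05, against 5.07% of all genes higher and 5.89% lower. In HIF1α/2α-ko against vector 3 of 7 were higher (ALDH1B1, ALDH3A2 and ALDH9A1) and 0 lower, against 31.8% and 14.8%. With 7 members these counts set nothing apart from the background. Without replicate 1 of every group, 4 members instead of 2 were higher in HIF1α-ko, ALDH1B1 and ALDH7A1 being added. The genes called higher there rose as well, to 4601 of 11731, so the larger count is no trait of the members.

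Between the knockout groups 8 members entered the fit. Against HIF1α-ko ALDH1A3 is given as a description and is left out of the counts, which leaves 7. HIF1α/2α-ko had 3 of 7 members higher than HIF1α-ko (ALDH1B1, ALDH3A2 and ALDH9A1) and 1 lower (ALDH1A2), against 17.7% of all genes higher and 10.6% lower. Without HIF1α-ko replicate 2 or without HIF1α/2α-ko replicate 2 only 1 remained higher. Against HIF2α-ko the same 3 of 8 members were higher in HIF1α/2α-ko and 0 lower, against 33.5% and 12.9%. HIF1α-ko had 3 of 7 members higher than HIF2α-ko (ALDH1A2, ALDH3A2 and ALDH9A1) and 0 lower, against 17.8% and 7.37%. Under median ratio scaling 0 of the 7 were called, where 1032 of all genes were higher and 1300 lower.

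TPM itself shifted between groups: the median of all genes was 0.18 higher in HIF1α-ko and 0.21 higher in HIF1α/2α-ko than in vector on the log2 scale, and 0.01 for both under median ratio scaling. The medians of the 7 tested members other than ALDH1A3 were 0.29 and 0.63. The latter was the value of ALDH2, which was 0.19 without HIF1α/2α-ko replicate 3. In HIF1α-ko against HIF2α-ko the median over all genes was 0.23 and that of 8 members 0.57. These 8 include ALDH1A3, whose HIF1α-ko libraries were part of the choice of the family, so this median is not independent of that choice.

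The interaction, which subtracts both single-knockout changes from the change in the dual knockout, was called for 3 of 7 members. It was positive for ALDH3A2 (1.01 ± 0.25, adjusted p = 0.016) and ALDH1B1 (1.11 ± 0.35, adjusted p = 0.0428) and negative for ALDH1A2 (-1.22 ± 0.33, adjusted p = 0.0236). Over all genes 13.2% had a positive and 7.35% a negative interaction. ALDH3A2 kept its call whichever library was left out, ALDH1B1 in 1 of the 12 such fits. For ALDH9A1 the interaction was 0.55 ± 0.27 with an interval of -0.03 to 1.14 (adjusted p = 0.16).

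Of the other 9 aldehyde dehydrogenase genes of the table, 6 entered the tests. ALDH3B2, ALDH5A1 and ALDH8A1 failed the filter, with at most 0.566 TPM in any library. ALDH4A1, the proline pathway enzyme of mitochondria, was at 1.96, 1.92 and 1.15 TPM in vector, 4.31, 4.05 and 4.02 TPM in HIF1α-ko and 5.24, 5.32 and 6.25 TPM in HIF1α/2α-ko. It rose against vector in HIF1α-ko (0.95 ± 0.17, adjusted p = 0.00272) and HIF1α/2α-ko (1.31 ± 0.17, adjusted p = 8.4e-05), and both calls held without any 1 library. ALDH18A1, which makes the proline precursor, was the 1 family gene called in HIF2α-ko against vector: 54.6, 36.0 and 35.4 TPM in vector and 85.9, 75.1 and 71.7 TPM in HIF2α-ko (0.89 ± 0.20, adjusted p = 0.0141). Leaving out HIF2α-ko replicate 1 or either of vector replicates 2 and 3 ended that call (adjusted p up to 0.0693). It was lower in HIF1α-ko than in HIF2α-ko (-1.12 ± 0.20, adjusted p = 0.00197).

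The folate enzyme ALDH1L1 was at 47.8, 41.2 and 37.4 TPM in vector and 36.5, 18.5 and 17.4 TPM in HIF1α-ko, a fall of -0.85 ± 0.29 (adjusted p = 0.0451) that 8 of the 12 fits without 1 library lost. ALDH16A1 rose in HIF1α/2α-ko against vector (0.54 ± 0.20, adjusted p = 0.0418) and ALDH1L2, the mitochondrial folate enzyme, was higher in HIF1α-ko than in HIF2α-ko (0.79 ± 0.26, adjusted p = 0.0452), and neither was called under median ratio scaling (adjusted p = 0.149 and 0.0769). ALDH6A1 passed no test in the fit without a block. With the replicate number as a block on the knockout groups its level in HIF1α/2α-ko was below that of HIF1α-ko (-0.39, adjusted p = 0.0261) and that of HIF1α-ko above HIF2α-ko (0.41, adjusted p = 0.0219), and under median ratio scaling it was lower in HIF1α/2α-ko than in vector (-0.53, adjusted p = 0.00418). The same block added calls in HIF1α/2α-ko against HIF1α-ko for ALDH1L1 (0.81, adjusted p = 0.00879), ALDH1L2 (-0.71, adjusted p = 0.00304), ALDH4A1 (0.36, adjusted p = 0.047) and ALDH18A1 (0.42, adjusted p = 0.00882).

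**Figure D1:**
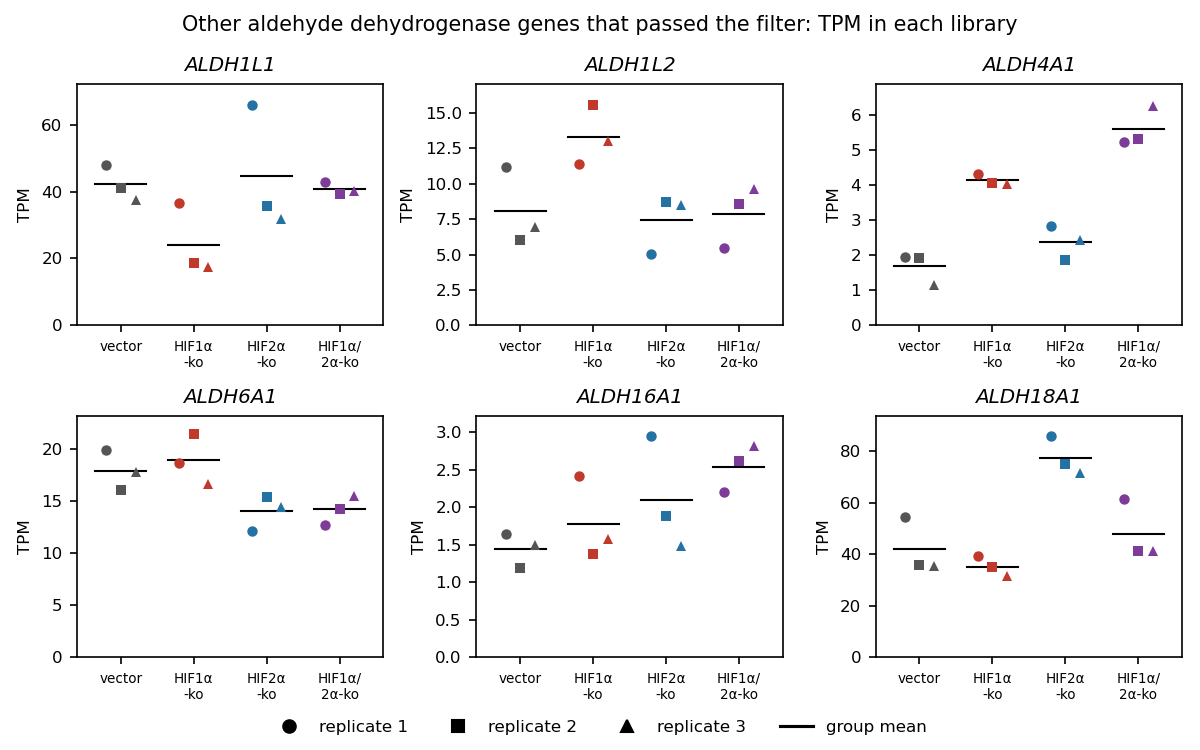
TPM (y axis, linear, a scale of its own for each gene) of the 6 other aldehyde dehydrogenase genes that passed the filter, in the 4 groups (x axis); symbols are libraries and lines group means. ALDH4A1 is higher in HIF1α-ko and HIF1α/2α-ko than in every vector library, and ALDH18A1 is at 71.7 to 85.9 TPM in HIF2α-ko.

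The summed TPM of all 19 family genes was 287 to 376 in vector, 403 to 444 in HIF1α-ko, 340 to 422 in HIF2α-ko and 337 to 426 in HIF1α/2α-ko. ALDH3B1 made up 36.1% to 55.7% of the sum in vector and 38.8% to 41.0% in HIF1α-ko. ALDH1A3 made up 19.2% to 21.3% of the sum in HIF1α-ko, 11.4% in vector replicate 1, 1.05% and 1.15% in vector replicates 2 and 3, and 1.59% to 4.23% in the groups with HIF2α knocked out. The share of ALDH9A1 was 5.98% to 7.39% in HIF1α/2α-ko and at most 4.11% in any other library.

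Genes that supply, carry or read retinoic acid were set beside the retinaldehyde dehydrogenases. Of a list of 30 such genes 17 entered the tests. Against vector, 6 rose and 4 fell in HIF1α-ko, 2 rose and 4 fell in HIF2α-ko, and 6 rose and 4 fell in HIF1α/2α-ko. Over all genes 17.3% and 8.77%, 5.07% and 5.89%, and 31.8% and 14.8% were called higher and lower in these comparisons. Leaving out 1 library, the range for HIF1α-ko was 4 to 8 higher and 3 to 4 lower. For HIF2α-ko it was 1 to 2 higher and 0 to 4 lower, and for HIF1α/2α-ko 5 to 8 higher and 4 to 5 lower. The 4 falls in HIF2α-ko were 0 without vector replicate 2 or without HIF2α-ko replicate 1 or 2, and 1 without vector replicate 3 or HIF2α-ko replicate 3. Over all genes 391, 360, 298, 219 and 293 fell in these fits, in that order, instead of 691. Under median ratio scaling the counts of the list were 4 and 4 for HIF1α-ko, 2 and 3 for HIF2α-ko, and 4 and 5 for HIF1α/2α-ko. Over all 11731 genes they were then 1278 and 1527, 753 and 579, and 2854 and 2600. In the fit without that scaling the median of the list was 0.26, -0.02 and 0.20, against 0.18, -0.04 and 0.21 over all genes. RXRA, the partner receptor of retinoic acid receptors, was at 5.72, 6.02 and 4.44 TPM in vector, 14.9, 16.7 and 16.0 TPM in HIF1α-ko, 7.35, 6.47 and 6.70 TPM in HIF2α-ko and 22.8, 20.7 and 19.5 TPM in HIF1α/2α-ko. It rose in HIF1α-ko (1.41 ± 0.15, adjusted p = 0.000156) and HIF1α/2α-ko (1.79 ± 0.15, adjusted p = 3.86e-06), and with the block on the knockout groups its level in HIF1α/2α-ko exceeded that in HIF1α-ko (0.38, adjusted p = 0.0174).

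CRABP2, which carries retinoic acid to its receptor, went the other way. It was at 383, 591 and 518 TPM in vector, 273, 159 and 198 TPM in HIF1α-ko, 543, 545 and 377 TPM in HIF2α-ko and 186, 102 and 101 TPM in HIF1α/2α-ko. The falls in HIF1α-ko (-1.25 ± 0.27, adjusted p = 0.00622) and HIF1α/2α-ko (-1.97 ± 0.27, adjusted p = 0.000104) passed, and with that block the level in HIF1α/2α-ko was below that in HIF1α-ko (-0.72, adjusted p = 0.0112). RDH11, a reductase of retinaldehyde, was at 26.1 to 44.7 TPM in vector and HIF1α-ko, 58.7 to 68.8 TPM in HIF2α-ko and 92.9 to 115 TPM in HIF1α/2α-ko. It rose in HIF2α-ko (0.85 ± 0.18, adjusted p = 0.0112, 0.0522 without HIF2α-ko replicate 3) and HIF1α/2α-ko (1.61 ± 0.18, adjusted p = 2.37e-05). ALDH1A3 was high in HIF1α-ko, where CRABP2 was low and RXRA high against vector. In HIF1α/2α-ko CRABP2 and RXRA stood on the same sides of vector. ALDH1A3 was there below HIF1α-ko and vector replicate 1 but above vector replicates 2 and 3.

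Of 22 other enzymes that make or remove aldehydes and alcohols, 15 entered the tests. Against vector, 2 rose and 2 fell in HIF1α-ko, 2 rose and 0 fell in HIF2α-ko, and 4 rose and 2 fell in HIF1α/2α-ko. These counts stand beside the shares of all genes given for the retinoic acid list (17.3% and 8.77%, 5.07% and 5.89%, 31.8% and 14.8%). The medians were 0.25, 0.48 and 0.34, against 0.18, -0.04 and 0.21 over all genes. Leaving out 1 library, the range for HIF1α-ko was 1 to 6 higher and 0 to 2 lower. For HIF2α-ko it was 1 to 6 higher and 0 lower, and for HIF1α/2α-ko 3 to 6 higher and 2 lower. Without vector replicate 1, 6 rose against vector in each knockout group, while 1, 0 and 2 fell. In that fit 2828, 1304 and 3873 of the 11731 genes rose and 1366, 1193 and 1799 fell. Under median ratio scaling 1, 4 and 4 rose and 2, 0 and 3 fell. Over all genes 1278, 753 and 2854 rose and 1527, 579 and 2600 fell under that scaling. The aldo-keto reductase AKR1C1 was at 10.9, 8.66 and 6.58 TPM in vector and 20.3, 31.3 and 31.2 TPM in HIF1α/2α-ko (1.56 ± 0.22, adjusted p = 0.000131), and AKR1B10 at 2.04, 0.417 and 0.641 TPM and 3.68, 6.40 and 6.42 TPM (1.73 ± 0.26, adjusted p = 0.00022). Both have close copies in the genome, so their reads may be shared with those. The aldehyde oxidase AOX1 fell from 43.0, 23.3 and 24.0 TPM to 9.29, 10.3 and 11.6 TPM (-1.40 ± 0.21, adjusted p = 0.000197).

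Among the 5 genes whose levels followed ALDH1A3 most closely over the 12 libraries, of 8010 others with a mean of at least 5 TPM, were SPTAN1 (Pearson's r 0.972 of log2(TPM + 1)), LPCAT1 (0.964), TPCN1 (0.954) and EGR2 (0.953). Such an r is set mainly by the HIF1α-ko libraries and vector replicate 1. Over the 8 libraries without them it was 0.816, 0.924, 0.839 and 0.607. LPCAT1, an acyltransferase of phospholipid remodelling, was at 40.9 TPM in vector replicate 1, 21.1 and 21.8 TPM in the other vector libraries and 48.3, 44.4 and 42.9 TPM in HIF1α-ko. These genes were chosen by that likeness, so their high values in vector replicate 1 are no separate finding. Among the 7 tested members other than ALDH1A3, 4 were above both other vector libraries in replicate 1, against 45.7% of all genes tested.

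Antisense genes are annotated over the members ALDH1A2, ALDH1A3, ALDH3A1, ALDH3A2 and ALDH3B1, and over ALDH1L1 and ALDH8A1 of the other family genes. Protein-coding genes of the deposited file lie on the opposite strand over ALDH1A2, ALDH1L2, ALDH5A1, ALDH6A1 and ALDH16A1. The sources used here do not say whether reads were counted by strand. Reads of these family genes and of their partners on the opposite strand can therefore not be told apart. As over ALDH2, a protein-coding gene is annotated on the same strand over ALDH4A1 (AL080251.1) and ALDH16A1 (AC010619.1). Their part in the values of those genes was not tested.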

How the data were processed

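Messenger RNA of U-87 MG cells was sequenced in 12 libraries, 3 in each of 4 groups taken from the labels. The authors deposited TPM values, 1 column per library, with no pooling. Per the labels, the submitters' processing notes name FastQC 0.11.2, Trimmomatic 0.36, HISAT2 2.0, bedtools 2.26.0 and the build GRCh38. Their roles are not given, and the quantifier, annotation and strand setting are not given in the sources used here. TPM keeps no depth, so no counting interval could be computed. Columns whose names hold no knockout code were read as vector.

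TPM was transformed to log2(TPM + 1), so fold changes of low genes are understated. The fit with limma 3.58.1 (R 4.3.3) used the 11731 genes that reached 1 TPM in 3 or more libraries, with a mean-variance trend and all 4 groups in 1 model. Each adjusted p is two-sided, from limma with Benjamini-Hochberg adjustment over all genes tested in its comparison, at a threshold of 0.05. Ratios are of mean TPM. Other steps used Python 3.11.15 with numpy 2.4.6, pandas 2.3.3 and, for figures, matplotlib 3.10.9. Gene positions are from GENCODE 29 and sequences from RefSeq.

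The members and lists were chosen with earlier results of these data known. Named were all members, the other family genes that passed a test, from each list the 3 genes of smallest p for HIF1α/2α-ko against vector, the 5 genes most like ALDH1A3, and HIF1A and EPAS1. For 1 gene that this rule names the result is not reported here. Alternatives were a pseudocount of 0.1, no filter, median ratio scaling, the replicate number as a block and each library left out in turn. Chosen after seeing the data were a block on the knockout groups alone and a fit that left out replicate 1 in all groups.

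Deviations of same-numbered libraries from their group means correlated between knockout groups (Pearson's r 0.196 to 0.508 across genes), so the numbers were taken as pairs there, on the evidence of the values only. Between vector and knockouts r was -0.0265 to 0.163, and they were not. The pairs enter only the fits named as having a block. All other values between knockout groups come from the fit without a block, which leaves the pairs out.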

Additional observations from a re-analysis of the deposited data

Results flagged for a closer look

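For 3 of 7 tested members the change in HIF1α/2α-ko differed from what both single-knockout changes add up to, by the interaction term of limma. Such a call is common here, being positive for 13.2% and negative for 7.35% of all genes tested. The difference on the log2(TPM + 1) scale was -1.22 for ALDH1A2 (adjusted p = 0.0236), 1.11 for ALDH1B1 (adjusted p = 0.0428) and 1.01 for ALDH3A2 (adjusted p = 0.016). For ALDH1A2 the adjusted p ran from 0.0159 to 0.0613 over the fits without 1 library, for ALDH1B1 from 0.00244 to 0.103 and for ALDH3A2 from 0.00832 to 0.0436. Without the filter on low values, that of ALDH1B1 was 0.0748. The cause of these differences was not tested.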

How the results depend on the processing

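With a pseudocount of 0.1 and without the filter the number of members called stayed within 1.5 times that reported in all 7 comparisons. Under median ratio scaling it did so in 6, and in HIF1α-ko against HIF2α-ko it was 1, ALDH1A3, instead of 4. In this section the counts between HIF1α-ko and another knockout group, and the numbers they are set against, include ALDH1A3, which is no independent member of them. Leaving out 1 library gave 0 to 2 called members in HIF1α-ko against vector (0 without vector replicate 2, 1 without vector replicate 3 or HIF1α-ko replicate 2), 0 in HIF2α-ko, 3 to 4 in HIF1α/2α-ko, 3 to 5 in HIF1α/2α-ko against HIF1α-ko, 3 against HIF2α-ko, 2 to 5 in HIF1α-ko against HIF2α-ko (2 without HIF1α-ko replicate 2 or any 1 HIF2α-ko library) and 1 to 3 for the interaction. Where this leaves a group with 2 libraries, fewer samples enter the comparison. Without replicate 1 of every group, 4 members were called in HIF1α-ko against vector instead of 2, and ALDH1L2 in HIF1α/2α-ko against vector turned from -0.02 to 0.43 (adjusted p = 0.0201). The cause was not tested. With the replicate block the counts of members were 2, 0, 3, 5, 3, 3 and 3, in the order in which the report counts them (interaction last). The block changed 1 call of a member, ALDH1A2 in HIF1α-ko against HIF2α-ko, and the block on the knockout groups alone none. Over all genes, median ratio scaling changed the split of higher and lower calls from 2031 and 1029 to 1278 and 1527 in HIF1α-ko, from 3732 and 1741 to 2854 and 2600 in HIF1α/2α-ko, and from 2084 and 865 to 1032 and 1300 in HIF1α-ko against HIF2α-ko. The replicate block raised the calls in HIF2α-ko from 595 and 691 to 894 and 1174, and the block on the knockout groups gave 3398 and 2286 instead of 2076 and 1246 in HIF1α/2α-ko against HIF1α-ko and 4438 and 1489 in HIF1α-ko against HIF2α-ko. Without replicate 1 of every group HIF1α-ko against vector had 4601 and 1860, and without vector replicate 3 HIF2α-ko had 252 and 219. Low members such as ALDH1A1 and ALDH3A1 are limited by the unknown depth.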
